A study of Arabidopsis thaliana with 6 samples.

Results

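The 10 genes described here are the 4 ferritin genes of Arabidopsis (FER1, FER2, FER3 and FER4) and 6 regulators of the iron deficiency response (bHLH38, bHLH39, bHLH100, bHLH101, BTS and PYE). They were taken by locus identifier from the 27629 genes of the count files, and all 10 were listed there. The question asked was whether the iron deficiency genes move opposite to the ferritins.

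Buds whose anthers were at stages 6 to 9 came from 3 wild type (WT) and 3 BnA9::BnMAGL8.1 replicates of the Col ecotype (Col-0 in the study), all grown in a greenhouse at 23 °C with 16 h of light and 8 h of darkness. In the transgenic plants, called BnA9::BnaC.MAGL8.a in the study, a rapeseed monoacylglycerol lipase gene was driven by BnA9, a promoter active in the tapetum, the innermost anther wall layer that feeds the developing pollen. The study's methods speak of transgenic lines in the plural. The sources used here do not say which line gave each transgenic replicate, how many plants each held, or at which hour the buds were taken. The tests below therefore rest only on how much these 6 libraries vary. The buds also held sepals, petals, carpels and other anther tissue, and in such mixed samples fewer cells of a type and less RNA per cell cannot be told apart.

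Ferritins are protein shells that store iron in a form that does not react with oxygen, and in Arabidopsis they lie mainly in plastids. Their transcripts accumulate when iron is plentiful or when cells are under oxidative stress. When iron is short, a cascade of basic helix-loop-helix (bHLH) transcription factors switches on iron uptake and redistribution. The subgroup Ib factors bHLH38, bHLH39, bHLH100 and bHLH101 are among its most iron-responsive genes, POPEYE (PYE) encodes a bHLH repressor within it, and BRUTUS (BTS) encodes an iron-binding E3 ubiquitin ligase that restrains it.

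The members lie on chromosomes 2, 3 and 5 of TAIR10.1. FER1 (AT5G01600) spans positions 227953 to 230051 of chromosome 5 on the minus strand. FER3 (AT3G56090) spans 20813904 to 20816035 of chromosome 3 on the minus strand, FER2 (AT3G11050) 3463477 to 3465506 of chromosome 3 on the plus strand, and FER4 (AT2G40300) 16831109 to 16833294 of chromosome 2 on the minus strand. On chromosome 3, bHLH38 (AT3G56970, 21084035 to 21085245) and bHLH39 (AT3G56980, 21086390 to 21087710) are neighbours on the minus strand. The other Ib genes are bHLH100 (AT2G41240, chromosome 2, 17198037 to 17199454, minus strand) and bHLH101 (AT5G04150, chromosome 5, 1138410 to 1139633, minus strand). BTS (AT3G18290, 6273966 to 6280562) and PYE (AT3G47640, 17567126 to 17569394) lie on the plus strand of chromosome 3. Because the use of strand in counting is not given, overlapping genes have uncertain counts. In bHLH38, 32.6% of the stretches of 50 bases in its transcript are shared with the overlapping lipid kinase gene PIP5K4. The share is 5.74% in FER4 (shared with AT2G40290) and 2.90% in bHLH101 (shared with GLU1). In FER2 it is 0.182%, mainly with AT3G61010, which is not the gene that overlaps FER2 (AT3G11040). FER1 overlaps AT5G01595 on the opposite strand, but 0% of such stretches in its transcript are shared with another gene.

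The sequences just before the gene starts are shown because they carry the motifs that differ between members. Each is 5′ to 3′ on the strand of the gene, from position -160 to -41 counted from the annotated start, read from the TAIR10.1 genome with the RefSeq annotation. Capitals mark the G-box CACGTG, a palindrome bound by bHLH and bZIP factors, and in FER3 also the evening element AAAATATCT, a sequence found in genes with evening peaks of expression.
FER1, chr5:230092-230211, minus strand: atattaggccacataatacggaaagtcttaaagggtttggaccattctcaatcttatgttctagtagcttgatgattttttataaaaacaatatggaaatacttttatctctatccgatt
FER3, chr3:20816076-20816195, minus strand: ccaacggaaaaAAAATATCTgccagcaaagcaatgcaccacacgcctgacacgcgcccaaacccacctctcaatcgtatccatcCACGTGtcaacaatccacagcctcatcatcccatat
bHLH38, chr3:21085286-21085405, minus strand: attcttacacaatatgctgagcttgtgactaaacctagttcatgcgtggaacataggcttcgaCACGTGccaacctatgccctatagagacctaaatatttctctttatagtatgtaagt
bHLH100, chr2:17199495-17199614, minus strand: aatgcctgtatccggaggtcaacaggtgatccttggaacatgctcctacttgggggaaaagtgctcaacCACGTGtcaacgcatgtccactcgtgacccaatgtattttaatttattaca
BTS, chr3:6273806-6273925, plus strand: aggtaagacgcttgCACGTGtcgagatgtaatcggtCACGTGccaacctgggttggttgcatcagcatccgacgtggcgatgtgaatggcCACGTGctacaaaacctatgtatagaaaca

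In the 250 bases before the start, a G-box was found in 4 of the 9 members searched, namely FER3, bHLH38, bHLH100 and BTS, and in 6.48% of all 27418 promoters of that length. The ferritin gene FER3 holds 1, beginning at -76, and BTS holds 3, beginning at -146, -124 and -70. FER1, the most abundant ferritin transcript here, has none in this window, nor has FER2, bHLH39, bHLH101 or PYE. The evening element, searched on both strands like the others, was found in FER3 alone among these members and in 2.36% of all promoters. The motif GNATATNC, recognised by the phosphate starvation factor PHR1, was found in 0 of the 9 and in 5.45% of all promoters. The core GAGGCCGCC of the iron-dependent regulatory sequence known from FER1 was found in 0 of the 9 and in 0.0109% of all promoters. In FER1 this core began 270 bases after the annotated start, before the coding sequence, which begins 457 bases after that start. The G-box, the evening element and the PHR1 motif were searched only before the annotated start. The part of FER1 that holds the core was therefore not searched for them. These matches describe letters in a window and are not evidence of binding.

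**Figure D1:**
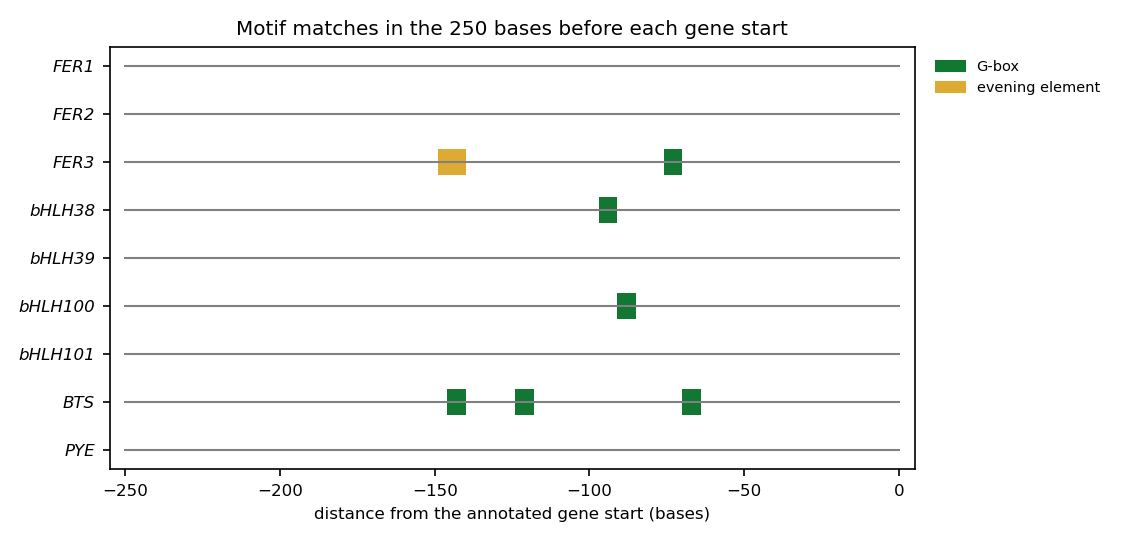
Matches to the G-box (green) and the evening element (yellow) in the 250 bases before the annotated start of each of the 9 members searched, with the distance from the start in bases on the x axis and 1 row per gene. FER3, bHLH38 and bHLH100 hold 1 G-box and BTS holds 3, and FER1 and FER2 have no match.

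The libraries held 13519945 to 14729927 counts. Levels are given in CPM, counts relative to the library total after TMM scaling. For the contrast of the genotypes, 18642 genes had enough counts for edgeR's filter and entered its quasi-likelihood test, with Benjamini-Hochberg adjustment over all of them. The transgene was not detected in any WT library (0 counts), and transgenic replicates 1, 2 and 3 held 5552, 853 and 9594 counts of it. Below, values of single libraries are listed in the order of replicates 1, 2 and 3. Summed tapetum markers stood at 2472 to 4290 CPM in the WT and 1491 to 3289 CPM in the transgenic libraries, with 10 of 10 tested markers lower. By edgeR 0 of the 10 passed an adjusted p of 0.05, and 1 had an unadjusted p under 0.05 (6.84% of all genes tested). In 1 of the 10 the 3 transgenic libraries lay below the 3 WT libraries (6.62% of all genes tested). The tapetum regulator DYT1 was at 0 in all 6, whereas the study's real-time PCR found it at a similar level in both genotypes. Why the counts of DYT1 were 0 was not tested. TDF1, a marker that was not tested either, had 3, 0 and 2 counts in the WT and 0, 0 and 4 counts in the transgenic replicates. Summed green tissue markers stood at 38491 to 46063 CPM in the WT and 35444 to 59416 CPM in the transgenic libraries. The root markers summed to no more than 19.9 CPM in any library, and RHD6 and CASP1 were at 0. COBL9 was detected in every library, at 17.7, 9.84 and 2.86 CPM in the WT and 5.21, 5.10 and 5.08 CPM in the transgenic replicates. ESB1 was also detected in every library, at 1.95 to 3.06 CPM. WT replicate 3 alone held counts of the seed genes SESA5 (284 counts) and CRU3 (135 counts), which were named after their values were seen. The morning clock gene LHY measured 1.03, 0.150 and 32.4 CPM in WT buds, against 2.48, 6.48 and 0.143 CPM in transgenic buds, so the libraries also differed within each genotype.

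Transcripts of 3 ferritin genes, FER1, FER3 and FER4, stood higher in every transgenic library than in any WT library, with ratios of means between 1.61 and 1.87. FER2 did not follow them, and none of the iron deficiency regulators that could be tested differed between the genotypes beyond the spread of the replicates. No member passed an adjusted p of 0.05, a threshold that 3 genes, or 0.0161% of those tested, passed. The study set its own threshold, an unadjusted p under 0.01, on DESeq2, so its counts of genes differ from those given here. At that threshold in edgeR, the 3 ferritins were among the 111 higher genes, which are 0.595% of those tested. No member was among the 158 lower genes (0.848%). FER1, FER3 and FER4 are in the study's own list of changed genes, which was chosen on these samples, so their direction here is not independent evidence.

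FER1 encodes the main ferritin of leaves. It measured 377, 271 and 539 CPM in WT buds, against 860, 691 and 670 CPM in transgenic buds. The highest WT library, replicate 3, lay below the lowest transgenic library, and the WT libraries were the more widely spread. The mean was 395 ± 135 CPM in WT buds and 740.2 ± 104 CPM with the transgene (SD, n = 3 each), which is a log2 fold change of 0.90 ± 0.25 (SE), with an unadjusted p = 0.00548 and an adjusted p = 0.641 in edgeR. Only 1.31% of the genes tested had a larger log2 fold change.

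FER3 and FER4 encode the other ferritins of vegetative and floral tissue, and a FER4 product has also been found in mitochondria. FER3 measured 146, 147 and 107 CPM in WT buds, against 209, 190 and 246 CPM in transgenic buds. The genotypes did not overlap, and WT replicate 3, in which FER1 was highest among the WT libraries, had the lowest FER3. The mean of FER3 was 133 ± 22.9 CPM in WT buds and 215.0 ± 28.6 CPM with the transgene (SD, n = 3 each), which is a log2 fold change of 0.69 ± 0.17 (SE), with an unadjusted p = 0.00295 and an adjusted p = 0.597 in edgeR. FER4 measured 89.8, 67.6 and 76.5 CPM in WT buds, against 140.0, 110.4 and 129.9 CPM in transgenic buds, again without overlap. Its mean was 78.0 ± 11.2 CPM in WT buds and 127 ± 15.1 CPM with the transgene (SD, n = 3 each), which is a log2 fold change of 0.70 ± 0.15 (SE), with an unadjusted p = 0.00153 and an adjusted p = 0.498 in edgeR. Of all genes tested, 5.57% had the 3 transgenic libraries above the 3 WT libraries.

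FER2, known as the ferritin of seeds, was far less abundant. It measured 9.47, 6.16 and 4.19 CPM in WT buds, against 5.45, 4.66 and 5.44 CPM in transgenic buds. The transgenic libraries lay within the WT range, and WT replicate 3, the library with counts of seed genes, had the lowest FER2. The log2 fold change was -0.36 ± 0.32 (SE, edgeR adjusted p = 0.842), and without WT replicate 1 it was 0.0054.

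**Figure D2:**
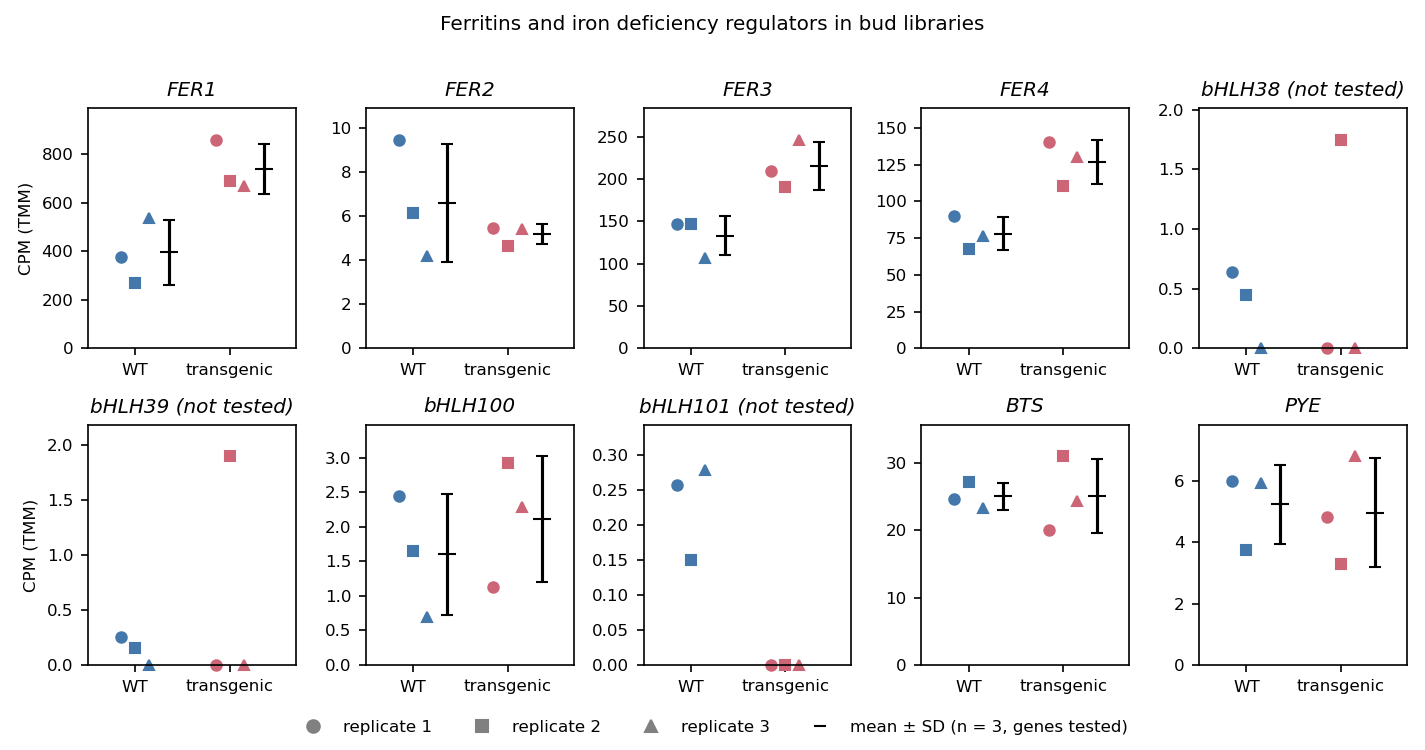
Level of each of the 10 members in CPM (linear y axes that start at 0 and differ between genes) in the 3 WT libraries (blue) and the 3 transgenic libraries (red), with a marker shape for each replicate number and, for the 7 genes tested, the mean ± SD (n = 3). FER1, FER3 and FER4 show no overlap between genotypes, while FER2, bHLH100, BTS and PYE overlap.

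The ferritin transcripts together measured 623, 491 and 726 CPM in WT buds, against 1214, 996 and 1052 CPM in transgenic buds. FER1 supplied 55.1% to 74.2% of that sum in the WT and 63.7% to 70.8% in the transgenic libraries, so its share overlapped between the genotypes. The mean sum was 613 ± 118 CPM in WT buds and 1087 ± 114 CPM with the transgene (SD, n = 3 each), a ratio of 1.77. The part of the tapetum and green tissue markers, whose sums overlapped between the genotypes as given above, was not tested. With a score of 6 clock genes as a covariate, the log2 fold changes by edgeR were 1.05 for FER1 (adjusted p = 0.0696), 0.64 for FER3 (adjusted p = 0.107) and 0.70 for FER4 (adjusted p = 0.129). Without WT replicate 3, which held the highest LHY and the seed genes, the log2 fold changes were 1.19, 0.55 and 0.69.

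The subgroup Ib genes, transcription factors that pair with FIT to activate iron uptake in roots, were close to the limit of detection. All 24 counts of these 4 genes were even and 9 were 0, of which 2 were in WT and 7 in transgenic libraries, and the highest was 40. Even counts were common among all low counts, at 75.5% to 78.0% of those from 1 to 20, and whether both reads of a pair were counted is not given. A count of 0 allows up to 3 counts, or 0.193 to 0.240 CPM in these libraries, if each count is a separate fragment, and more if both reads of a pair were counted.

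bHLH100 alone of the 4 passed the filter. It had 38, 22 and 10 counts in the WT and 14, 40 and 32 counts in the transgenic replicates, or 2.45, 1.65 and 0.698 CPM and 1.12, 2.91 and 2.29 CPM. The genotypes overlapped widely, with a log2 fold change of 0.40 ± 0.52 (SE, edgeR adjusted p = 0.897). Leaving out WT replicate 3 brought it to 0.04 and leaving out transgenic replicate 2 to 0.10, whereas it was 0.87 when WT replicate 1 was dropped and 0.69 when transgenic replicate 1 was.

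bHLH38 had 10, 6 and 0 counts in the WT and 0, 24 and 0 counts in the transgenic replicates. Its neighbour bHLH39 had 4, 2 and 0 counts in the WT and 0, 26 and 0 counts in the transgenic replicates. For both genes transgenic replicate 2 was the highest library and the other transgenic libraries were at 0. bHLH101 had 4, 2 and 4 counts in the WT and 0 in each transgenic library, a difference that lies at the floor of 3 counts and for which no fold change is given. These 3 genes did not pass the filter, and when every gene with a count was tested, their unadjusted p by edgeR was 0.606, 0.148 and 0.0242 and their adjusted p was 0.919, 0.796 and 0.774. Of the genes tested with the filter, 6.84% had an unadjusted p under 0.05 and 6.62% had the 3 transgenic libraries below the 3 WT libraries.

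BTS measured 24.6, 27.3 and 23.3 CPM in WT buds, against 20.03, 31.0 and 24.4 CPM in transgenic buds. Both the lowest and the highest library were transgenic. The means were 25.1 ± 2.01 and 25.2 ± 5.54 CPM (SD, n = 3 each) for a log2 fold change of 0.01 ± 0.19 (SE, edgeR adjusted p = 0.995). PYE measured 5.99, 3.75 and 5.93 CPM in WT buds, against 4.81, 3.28 and 6.80 CPM in transgenic buds. Again the lowest and the highest library were transgenic, and the log2 fold change was -0.08 ± 0.33 (SE, edgeR adjusted p = 0.978). Without transgenic replicate 2 the log2 fold changes of BTS and PYE were -0.17 and 0.15, so neither gene had a stable direction.

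To compare genes with each other, CPM was divided by the length of the exons in kilobases. On that scale the WT means were 278 for FER1, 104 for FER3 and 62.3 for FER4, and this order held in each of the 6 libraries. FER2 at 5.75, BTS at 5.58 and PYE at 3.77 CPM per kilobase came next, and the ranges of these neighbours overlapped across libraries. bHLH100 followed at 1.38 CPM per kilobase with a range that met that of PYE, and bHLH38 at 0.337, bHLH101 at 0.212 and bHLH39 at 0.112 could not be ordered at these counts. In the transgenic libraries the means of FER1, FER3 and FER4 were 521, 168 and 101.2 CPM per kilobase, and that of BTS was 5.60.

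The question whether the iron deficiency genes move opposite to the ferritins was taken to single libraries. Over the 6 libraries, 12 pairs of a ferritin and a regulator (bHLH100, BTS or PYE) were compared on log2 CPM, and 6 correlations were negative and 6 positive. The most negative was that of FER1 with BTS (Pearson r = -0.35, exact permutation p = 0.494, Spearman rho = -0.37, exact permutation p = 0.497, both two-sided). The most positive was that of FER3 with bHLH100 (Pearson r = 0.54, exact permutation p = 0.285, Spearman rho = 0.26, exact permutation p = 0.658). The smallest Benjamini-Hochberg adjusted exact p over the 12 pairs was 0.983. Without the 2 libraries farthest from the median of the ferritin, r kept its sign in 6 of the 12 pairs, was -0.31 for FER1 with BTS, and turned to -0.33 for FER3 with bHLH100. Because FER1, FER3 and FER4 did not overlap between genotypes, r was also taken after the genotype means were removed, where 6 of the 12 pairs were negative and r ran from -0.75 for FER4 with BTS to 0.74 for FER4 with PYE. BTS gave a negative r with each of the 4 ferritins before and after this step, and PYE a positive r with each of the 4 after it. Some of these were close to 0, as BTS gave -0.06 with FER2 and -0.04 with FER3 before the step. After it they were -0.08 and -0.02. For bHLH100, r after the step was -0.71 with FER1 and -0.13 with FER4, but 0.65 with FER2 and 0.56 with FER3. For FER4 with BTS, r was 0.40 without the 2 libraries farthest from the FER4 median. With 3 libraries per genotype no separate correlation within a genotype was computed. No inverse relation of the regulators to the ferritins was detectable with these 6 libraries.

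The order of single libraries gave the same mixed picture. The Ib transcripts together measured 3.61, 2.40 and 0.977 CPM in WT buds, against 1.12, 6.56 and 2.29 CPM in transgenic buds. Transgenic replicate 2 had the highest Ib sum and the lowest ferritin sum of its genotype, and transgenic replicate 1 the reverse. In the WT, replicate 3 had the lowest Ib sum and the highest ferritin sum, but replicate 2 had the lowest ferritin sum without the highest Ib sum. IMA1 and IMA2 encode IRON MAN peptides, which promote the iron deficiency response, and were named after their values were seen. IMA1 had 34, 32 and 11 counts in the WT and 4, 71 and 2 counts in the transgenic replicates. IMA2 had 56, 44 and 16 counts in the WT and 4, 68 and 2 counts in the transgenic replicates. Both peptides' genes were highest in transgenic replicate 2 and lowest in transgenic replicate 3, and their log2 fold changes were 0.09 ± 0.96 (SE) and -0.55 ± 0.91 (SE), with adjusted p of 0.989 and 0.920 by edgeR.

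**Figure D3:**
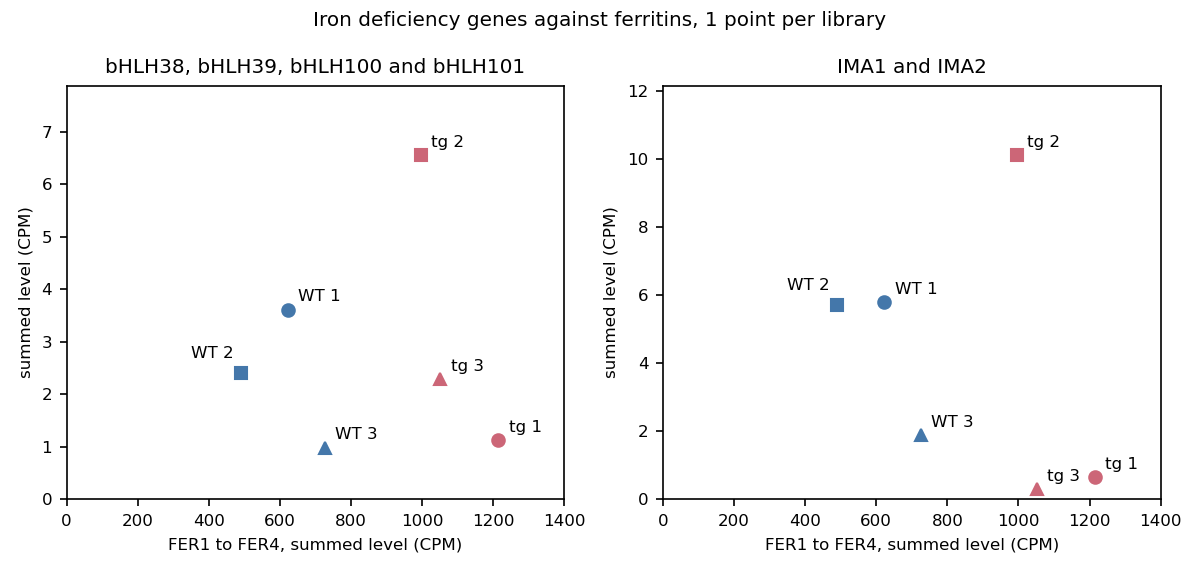
Summed level of the Ib genes (left) and of IMA1 and IMA2 (right) against the summed level of FER1 to FER4, all in CPM, with 1 point per library, WT in blue and transgenic (tg) in red. Transgenic replicate 2 is the highest point in both panels, at 6.56 and 10.13 CPM, while its ferritin sum of 996 CPM lies above all WT libraries.

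The wider iron network was described from 6 lists with 65 other genes, of which 46 were tested and 4 had no count in any library. By edgeR 0 of the 46 were called and 3 had an unadjusted p under 0.05 (6.84% of all genes tested), and DESeq2 and limma's voom also called 0. The fold changes were split evenly, with 23 higher and 23 lower, and the median log2 fold change was 0.01, against -0.01 over all genes tested, of which 47.9% were higher. The 3 transgenic libraries lay above the 3 WT libraries in 5 of the 46 genes and below them in 3, where the shares of all genes tested were 5.57% and 6.62%.

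Of 14 other iron regulators 8 were tested, 4 higher and 4 lower, and the list median was -0.03 on the log2 scale. MYB10, a MYB factor of the iron deficiency response, stood at 2.90 ± 0.0394 CPM in WT buds and 2.16 ± 0.414 CPM with the transgene (SD, n = 3 each), without overlap (log2 difference -0.42 ± 0.31 SE, edgeR adjusted p = 0.796). bHLH34 and bHLH104, subgroup IVc factors that activate the Ib genes, had log2 fold changes of -0.50 ± 0.29 (SE) and 0.16 ± 0.15 (SE) with overlapping genotypes. FIT, the root regulator with which the Ib factors pair, had 2, 2 and 0 counts in the WT and 8, 6 and 8 counts in the transgenic replicates. All 6 counts were even, as in the Ib genes, and those of the WT lay below the floor of 3 counts. FIT did not pass the filter and is named here after its values were seen. It had an unadjusted p of 0.0171 and an adjusted p of 0.774 by edgeR when every gene with a count was tested.

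Of 9 genes of root iron uptake 6 were tested, 2 higher and 4 lower, and the list median was -0.26 on the log2 scale. The iron transporter gene IRT1 stood at 26.2 ± 7.32 CPM in WT buds and 20.02 ± 7.14 CPM with the transgene (SD, n = 3 each, log2 difference -0.39 ± 0.30 SE, edgeR adjusted p = 0.808). AHA2, a plasma membrane proton pump, had a log2 fold change of 0.37 ± 0.16 (SE), with an unadjusted p = 0.0446 and an adjusted p = 0.722 in edgeR, and BGLU42, a beta-glucosidase involved in the release of phenolics from roots, one of 0.29 ± 0.17 (SE). Of 21 genes of iron transport and chelation 15 were tested, 7 higher and 8 lower, and the list median was -0.01 on the log2 scale. The mitochondrial iron importer genes MIT1 and MIT2 lay higher in every transgenic library, as did 5.57% of all genes tested, with log2 fold changes of 0.26 ± 0.15 (SE) and 0.31 ± 0.14 (SE) and adjusted p of 0.759 and 0.722 by edgeR. ZIF1, which encodes a vacuolar membrane transporter, had a log2 fold change of -0.19 ± 0.14 (SE). Among 6 genes of vacuolar iron import, the other main iron store of plant cells, 2 were tested, VIT1 at 0.35 ± 0.50 (SE) and VTL1 at -0.01 ± 0.44 (SE) on the log2 scale.

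All 12 listed genes of iron-sulfur cluster assembly were tested, 9 higher and 3 lower, and the list median was 0.20 on the log2 scale, and none was called. SUFE1 and SUFD, which belong to the plastid assembly pathway, were among 3 of the 12 genes that lay higher in every transgenic library. The share of all genes tested was again 5.57%. SUFE1 stood at 26.1 ± 5.53 CPM in WT buds and 34.8 ± 2.02 CPM with the transgene (SD, n = 3 each, log2 difference 0.42 ± 0.18 SE, edgeR unadjusted p = 0.0479 and adjusted p = 0.722). SUFD and HCF101, a plastid scaffold protein gene, had log2 fold changes of 0.32 ± 0.16 (SE) and 0.27 ± 0.14 (SE). Of the green tissue markers 11 of 12 had a positive log2 fold change, with a median of 0.16, but 0 of the 12 had an unadjusted p under 0.05, and their part was not tested.

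The 3 listed regulators of ferritin genes were all lower, with a list median of -0.18 on the log2 scale. PHR1, a MYB factor of the phosphate starvation response that activates FER1, measured 9.86, 7.74 and 11.7 CPM in WT buds, against 5.13, 3.57 and 7.44 CPM in transgenic buds. The genotypes did not overlap, and the log2 fold change was -0.86 ± 0.30 (SE), with an unadjusted p = 0.0201 and an adjusted p = 0.720 in edgeR. TIC (TIME FOR COFFEE), a clock protein gene known to repress ferritin genes, stood at 121 ± 7.43 CPM in WT buds and 107 ± 10.6 CPM with the transgene (SD, n = 3 each), also without overlap (log2 difference -0.18 ± 0.13 SE, edgeR adjusted p = 0.796). PHL1, a close relative of PHR1, had a log2 fold change of -0.08 ± 0.35 (SE). Such a lack of overlap, with the transgenic libraries below, was found in 6.62% of all genes tested, and none of the 3 regulators was called.

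**Figure D4:**
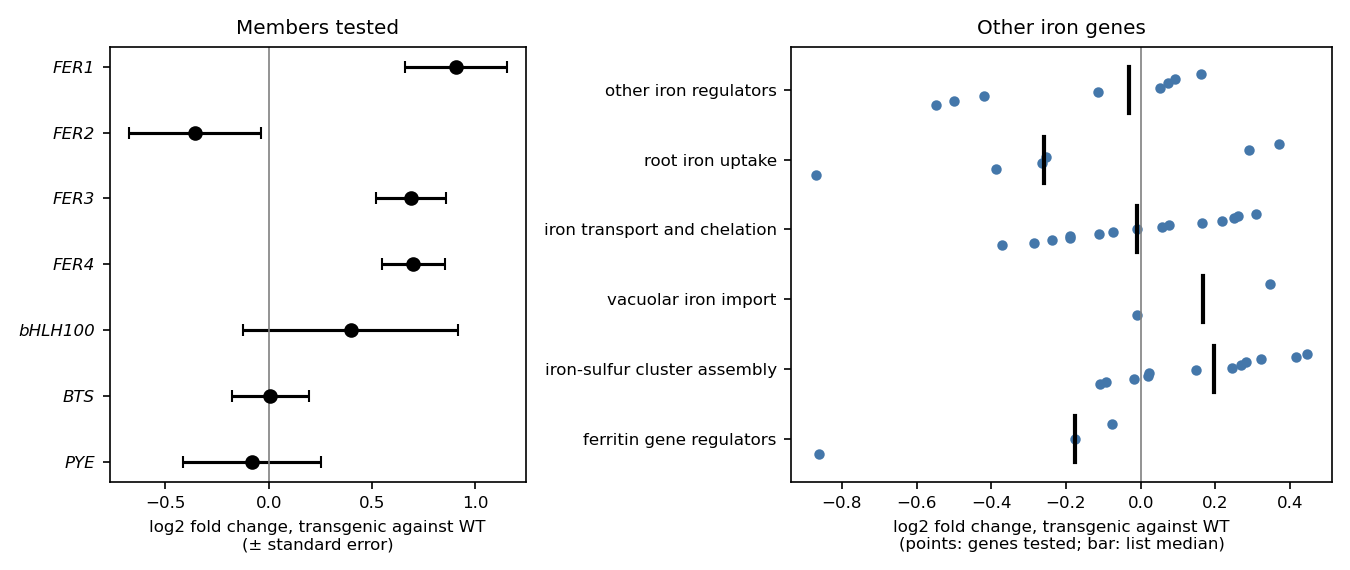
Log2 fold change of transgenic against WT buds for the 7 members tested (left, points with standard errors derived from edgeR's F statistic) and for the 46 tested genes of 6 other iron lists (right, 1 point per gene, black bars for list medians). FER1, FER3 and FER4 lie between 0.69 and 0.90, while the other iron genes lie between -0.87 and 0.45 around a median of 0.01.

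The genes whose levels over the 6 libraries were most like those of the ferritins were sought among 17900 genes tested with a mean of at least 1 CPM, by Pearson r with the mean log2 CPM of the 4 ferritins. The 5 with the highest r were RWP1 (also ASFT, a feruloyl transferase of suberin synthesis) at 0.978, AT3G28940 at 0.972, PSK4 (a phytosulfokine peptide precursor) at 0.970, AT5G60260 at 0.967 and AT1G13750 at 0.965. By the same measure, the 5 most like bHLH100 were LECRKA4.3 at 0.987, AT5G05990 at 0.985, rps15ab at 0.983, AT4G33490 at 0.983 and MSH6 at 0.981. With 6 libraries and so many genes, values of this size describe the choice of the highest and carry no test. RWP1 was low, at 0.279 to 0.838 CPM in the WT and 1.09 to 3.22 CPM in the transgenic libraries, whereas AT3G28940 stood at 64.7 to 73.9 CPM in the WT and 80.1 to 89.9 CPM in the transgenic libraries.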

How the data were processed

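RNA of flower buds was measured in 3 WT and 3 BnA9::BnMAGL8.1 libraries, grouped by their labels. The deposited values are counts per gene, made by the authors by mapping reads to the Arabidopsis genome with the transgene added. The submitters' processing notes name HISAT2, featureCounts, DESeq2 and TAIR10. Tool versions, the use of strand, and the handling of mates and of multiply mapped reads were not given in the sources used here.

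Genes were kept by edgeR's filter by genotype (minimum count 10, minimum total 15), scaled by TMM, and entered the quasi-likelihood test of edgeR 4.0.16 in R 4.3.3 with genotype as the only term, with Benjamini-Hochberg adjustment over 18642 genes. An adjusted p under 0.05 made a call. The standard errors of log2 fold changes were derived from that test, as the absolute log2 fold change divided by the square root of its F statistic. The genes tested held 99.9% of the counts. Replicate libraries differed beyond sampling noise (chi-square per degree of freedom 15.4 to 56.0). Floors of 3 counts cover counting error only. Correlations used log2 CPM (prior count 2) and exact two-sided permutation tests (scipy 1.17.1).

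The members and the gene lists were chosen with earlier results of these data known. The text names all 10 members and the 3 genes with the smallest p of each other iron list. It also names the 5 genes most like the ferritins and bHLH100, some cell type markers, and TOC1 and LHY as clock genes. Further genes are marked as named after their values were seen. Coordinates and sequences are those of TAIR10.1 with the RefSeq annotation, in which all 119 listed genes were found. The upstream sequence of 1 member is not reported here. Alternatives were scaling by RLE, no filter beyond a single count, a filter of 10 counts in each of the libraries, DESeq2 1.42.0, voom from limma 3.58.1 with quality weights, robust empirical Bayes, a replicate block, a clock score (mean log2 CPM of LHY and CCA1 minus that of TOC1, GI, ELF4 and LUX), each library left out, a prior count of 0.5 for the correlations, and edgeR's older quasi-likelihood method, which was added after seeing the data. Plots came from Python 3.11.15 and matplotlib 3.10.9.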

Additional observations from a re-analysis of the deposited data

How the results depend on the processing

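Over 15 alternatives no member was called. The log2 fold change of FER1 ran from 0.70 to 1.19 (unadjusted p 7.6e-05 to 0.0259, lowest adjusted p 0.0696 with the clock score), that of FER3 from 0.55 to 0.78 (lowest adjusted p 0.0848 with DESeq2) and that of FER4 from 0.61 to 0.81 (lowest adjusted p 0.0564 with DESeq2). An unadjusted p under 0.01 held for FER4 in 15, for FER3 in 13 and for FER1 in 11 alternatives. BTS turned to -0.014 with the replicate block and -0.0018 with the clock score, and over fits that left out 1 library it ran from -0.17 to 0.15, PYE from -0.38 to 0.15 and FER2 from -0.60 to 0.0054. Over all genes 3 were called, against 62 with DESeq2, 1 with robust empirical Bayes, 5 with the clock score, 0 with voom (1736 genes at an unadjusted p under 0.05) and 0 to 5 without 1 library (0 without WT replicate 1 or 2, 1 without transgenic replicate 1, 5 without WT replicate 3). The count of genes at an unadjusted p under 0.01, 269, was 386 with DESeq2 and also with voom, 646 with the clock score and 124 to 516 without 1 library. The cause was not tested. The other iron genes kept 0 calls in all alternatives.

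With the replicate number as a block, 0 genes were called by edgeR (961 at an unadjusted p under 0.05) and 165 had an unadjusted p under 0.01. The labels do not say what libraries with the same number shared. Their deviations from the genotype means correlated at -0.0756, -0.0983 and -0.351, and a common batch was not tested. The block left FER1 at 0.95, FER3 at 0.70 and FER4 at 0.70 on the log2 scale, and the unadjusted p of FER3 went from 0.00295 to 0.0145. The counts of the Ib genes were at most 40, and bHLH100, the only one tested, had a standard error of 0.52 on the log2 scale.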

Other observations

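NAS1, which encodes a nicotianamine synthase that makes a chelator of iron and other metals, had 98 counts in transgenic replicate 3 and 0 in the other 5 libraries. It was the only gene with at least 50 counts in that library and 0 in all others, and 8 genes met the same condition in WT replicate 3 and 0 in each of the other 4 libraries. In WT replicate 3 these included the seed genes SESA5 (284 counts), CRU3 (135 counts), GEA6 (127 counts) and OLEO2 (61 counts), and the defensin gene LCR67 (205 counts). NAS1 was not tested with the filter on low counts. These genes were named after their values were seen.

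The evening clock gene TOC1 measured 70.7, 88.8 and 23.3 CPM in WT buds, against 51.0, 43.0 and 100.7 CPM in transgenic buds. The library with the lowest TOC1, WT replicate 3, had the highest FER1 and the lowest FER3 of the WT. The library with the highest TOC1, transgenic replicate 3, had the lowest FER1 and the highest FER3 of the transgenic libraries. Transgenic replicate 2 had less TOC1 than transgenic replicate 1, but also less FER1 (691 against 860 CPM) and less FER3 (190 against 209 CPM). A relation of FER1 or FER3 to TOC1 was not tested.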
